A study of Mus musculus with 13 samples.

Results

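Type I interferon response genes are described here in mouse embryonic fibroblasts (MEFs), sequenced in 13 RNA-seq libraries as primary cultures and as spontaneously immortalized lines. The 34 genes were given as a list of symbols, chosen by function with earlier results of these data known. All 34 of 34 were matched to genes in both deposited count tables, which list 55487 genes each. All 34 also passed edgeR's filter on low counts over the 13 libraries, as did 21197 genes in all. The wild-type (WT) libraries comprised 3 primary cultures, numbered as clones 3, 4 and 5, and the immortalized line grown from each. The libraries labelled Prkd3-/- comprised primary clones 13, 14 and 15 and 4 immortalized lines, numbered 13, 13a, 14 and 15. Line 13a was taken from its number as a second line of clone 13. Cells of all groups grew in medium with 10% fetal calf serum, which the authors raised to 20% once a culture became senescent, until colonies of dividing cells appeared. No interferon, virus or inhibitor is named for any group. Each line is 1 established culture, and the strain, the age of the embryos and the exons removed in the Prkd3-/- animals are not given in the sources used here.

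Type I interferons are secreted proteins that cells make when sensors detect viral or misplaced nucleic acid. They bind the receptor chains encoded by Ifnar1 and Ifnar2, whose kinases Jak1 and Tyk2 phosphorylate the transcription factor Stat2. It joins Irf9 in the complex ISGF3, which binds a short DNA element, the ISRE, in front of a large set of interferon-stimulated genes. Unstimulated fibroblasts keep a low constitutive level of this signalling, and Stat2, Irf7 and Irf9 are themselves targets of the pathway.

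The ISRE was looked for in promoters because members with the element share a known route of control. RefSeq start sites on GRCm38.p6 were listed for 25 of the 34 members. In the 250 bases before the start, the letters GAAANNGAAA, or TTTCNNTTTC for the other strand, occurred in 11 of the 25 members (44.0%) and in 936 of 27025 genes with a listed promoter (3.46%). The members were chosen as interferon response genes, so a higher share than in all genes can follow from that choice and is not a test. A letter match is a description and not a bound site, and its absence from a window says nothing of the factor. The element of the gamma interferon pathway, TTCNNNGAA, which reads the same on both strands, occurred in 5 of the 25 members (20.0%) and in 8.13% of all genes. The following windows of 60 bases, each free of annotated exons, belong to 6 of the genes whose levels are given in every library below. Capitals mark the ISRE letters, and overlapping matches run together.
Isg15 (chromosome 4, 156200847 to 156200906, minus strand): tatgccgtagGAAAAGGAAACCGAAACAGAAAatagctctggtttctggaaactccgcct
Ifit1 (chromosome 19, 34640775 to 34640834, plus strand): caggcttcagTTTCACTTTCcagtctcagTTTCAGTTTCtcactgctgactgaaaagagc
Ifit3 (chromosome 19, 34583363 to 34583422, plus strand): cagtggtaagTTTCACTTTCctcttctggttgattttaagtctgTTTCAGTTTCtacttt
Bst2 (chromosome 8, 71537553 to 71537612, minus strand): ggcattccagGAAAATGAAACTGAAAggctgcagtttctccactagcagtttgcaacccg
Rsad2 (chromosome 12, 26456523 to 26456582, minus strand): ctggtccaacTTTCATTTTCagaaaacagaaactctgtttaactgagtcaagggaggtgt
Stat2 (chromosome 10, 128270266 to 128270325, plus strand): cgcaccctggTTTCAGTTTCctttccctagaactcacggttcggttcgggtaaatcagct

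Isg15 held 3 overlapping matches, the nearest beginning 66 bases before its start, and Ifit1 and Ifit3 each held 2 separate ones. The matches in Stat2 and Rsad2 were single, and Bst2 held 2 that overlap. Irf7, Irf9 and Oasl2 had no match in the window, and Usp18, Oas2, Mx1 and Mx2 were not among the listed promoters. Several members lie side by side in the genome. Ifit1, Ifit2, Ifit3 and Ifit3b are neighbours on chromosome 19, Oas1a, Oas2 and Oas3 on chromosome 5, Mx1 and Mx2 on chromosome 16, Dtx3l, Parp9 and Parp14 also on chromosome 16, and Rsad2 and Cmpk2 on chromosome 12.

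Levels are given as CPM, the deposited counts of read pairs scaled by library size and TMM factors over the 13 libraries. Totals ranged from 55436367 to 90654323 counts in the WT table and from 35273408 to 100441756 in the Prkd3-/- table. A count of 3, used as the floor for a detected level, equalled 0.0277 to 0.0842 CPM, and it covers counting error only. The genotypes stand in separate deposited tables, so genotype and table cannot be told apart. Prkd3, the gene named in the labels, lay at 69.2 to 93.7 CPM in the WT libraries and at 33.6 to 61.0 CPM in those labelled Prkd3-/-, and counts per gene do not show a deletion of part of it. Fibroblast markers were high in sum in all libraries (13 genes summing to 32068 CPM or more). Single markers were not all high, as Lum had 3 read pairs in WT line 3 and Dcn had 20 in Prkd3-/- line 13. Col1a1, Col1a2, Fn1 and Vim stayed high in every library. In contrast, 18 macrophage markers summed to between 20.3 and 2438 CPM, as given with the results they move with. The female transcript Xist and Y-linked transcripts were both present in each WT primary library (Xist 43.8 to 55.9 CPM, Y-linked sum 102.5 to 121 CPM). WT line 3 had 170 CPM of Xist and 0.387 CPM of Y-linked transcripts, line 4 had 157 and 58.6 CPM and line 5 had 56.0 and 120 CPM. A line and the primary library of its number thus need not share their makeup of embryos. In the libraries labelled Prkd3-/-, Xist did not exceed 0.156 CPM and the Y-linked sum was 114 to 220 CPM. Genotype and sex makeup thus cannot be told apart either. The 3 WT primary libraries differed per gene by 2.08% to 3.15% beyond sampling noise, against 18.3% to 23.8% among WT lines, 8.05% to 20.2% among Prkd3-/- primary libraries and 24.0% to 49.1% among Prkd3-/- lines.

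The 3 WT primary libraries held the interferon response genes at a nearly equal level, and the 7 lines differed widely. The mean log2 CPM of the 34 genes was 4.14, 4.18 and 4.34 in WT primary libraries 3, 4 and 5. In the WT lines of the same numbers it was -0.27, 0.85 and 4.70. Line 5 thus lay above its primary library, while lines 3 and 4 lay below theirs by 3 log2 units or more. Among the Prkd3-/- primary libraries the mean was 2.26, 4.004 and 1.98 in clones 13, 14 and 15. Clone 14 was near the WT primary libraries and clones 13 and 15 lay lower. The Prkd3-/- lines had means of -0.62 for line 13, 3.05 for line 13a, 1.10 for line 14 and -0.02 for line 15. Lines 13 and 13a, which share a clone number, were the lowest and the highest of the 4. In bulk libraries, fewer cells that express a gene and less RNA per cell cannot be told apart. All 34 genes reached 1 CPM in each WT primary library and in WT line 5, against 16 in WT line 3 and 15 in Prkd3-/- line 13.

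**Figure D1:**
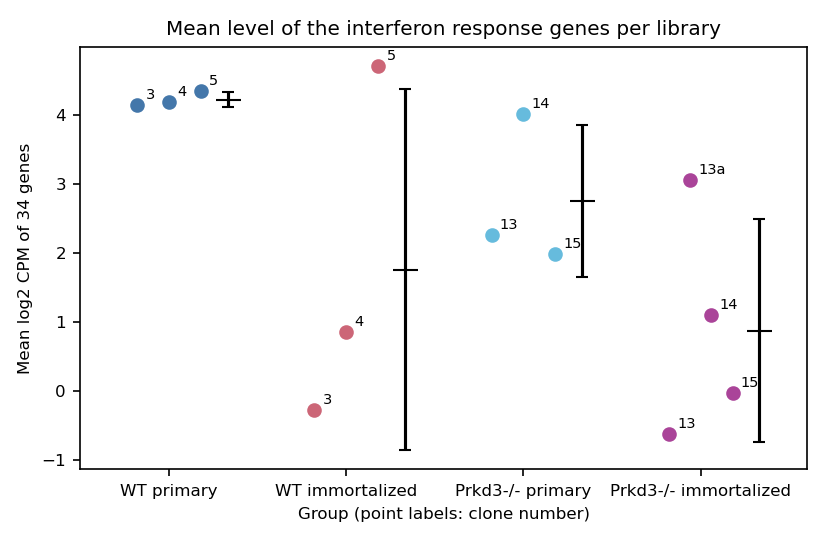
Mean log2 CPM of the 34 interferon response genes (vertical axis) in each library, with points labelled by clone number and grouped by genotype and state. The black bar beside each group is its mean ± SD. WT primary libraries lie between 4.14 and 4.34, and WT line 5 at 4.70 stands far from WT lines 3 and 4 at -0.27 and 0.85.

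Within each group a single library was at the top for nearly the whole list. WT line 5 was the highest of the 3 WT lines for 34 of 34 members, and for 34.8% of all genes. Prkd3-/- line 13a was the highest of its 4 lines for 33 of 34 members, the exception being Irf1, and for 18.1% of all genes. Prkd3-/- primary library 14 was the highest of 3 for 32 of 34 members and for 41.9% of all genes. WT primary library 5 was the highest for 31 of 34 members and 35.05% of all genes, although there the gap was small. The range of a member within a group, from its lowest to its highest library, had a median of 0.23 log2 units in the WT primary libraries, 4.94 in the WT lines, 2.40 in the Prkd3-/- primary libraries and 4.48 in the Prkd3-/- lines. For all genes the same median was 0.17, 0.67, 0.51 and 1.27.

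**Figure D2:**
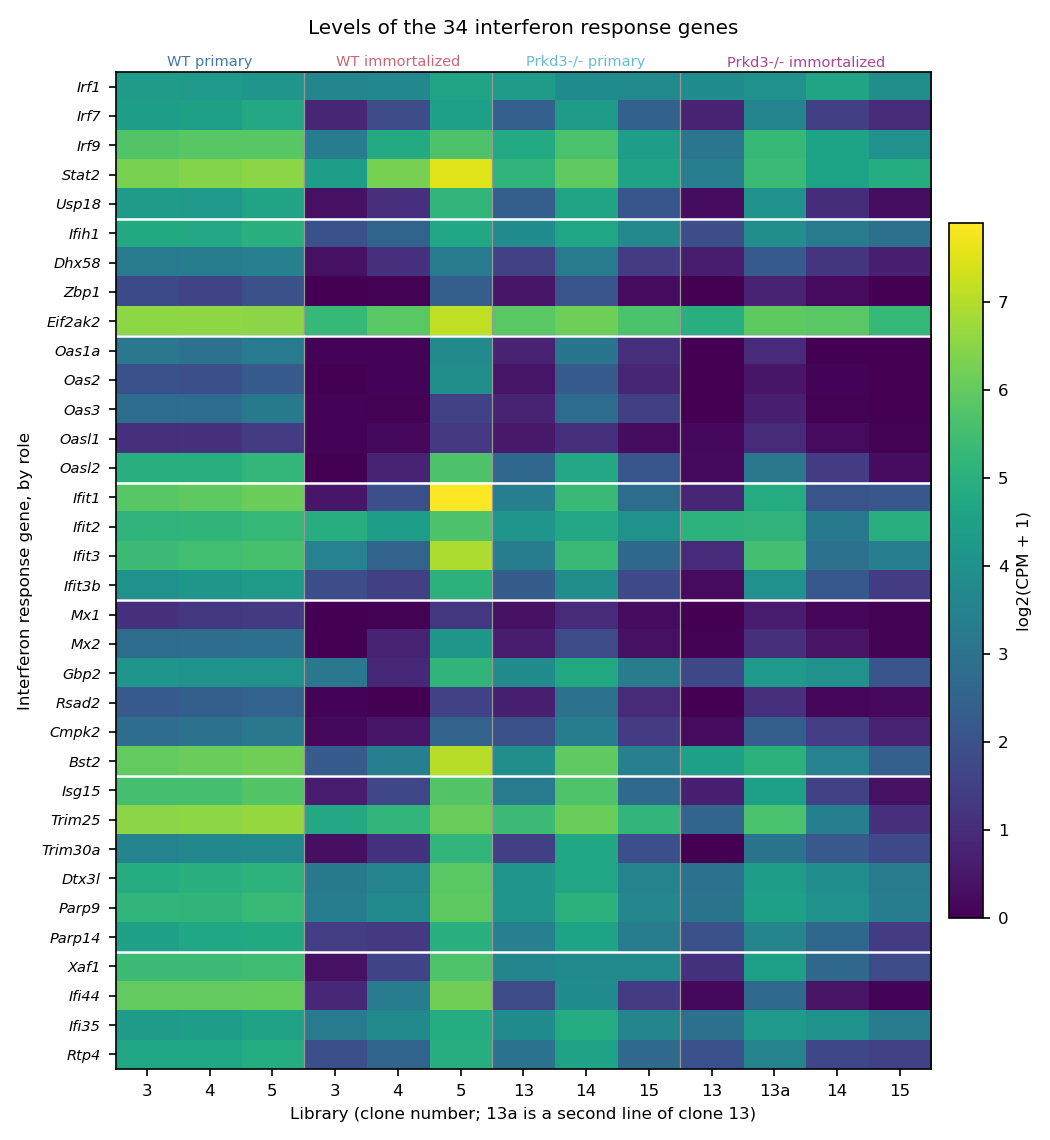
Level of each member (rows, grouped by role between white lines) in each library (columns, labelled by clone number and grouped by genotype and state), as colour on a log2(CPM + 1) scale. WT line 5, Prkd3-/- primary library 14 and Prkd3-/- line 13a are bright over most rows of their groups, and Irf1 stays between 11.4 and 23.7 CPM in all 13 columns.

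Values per library are given in 1 order throughout: primary clones 3, 4 and 5, then lines 3, 4 and 5 for WT, and primary clones 13, 14 and 15, then lines 13, 13a, 14 and 15 for Prkd3-/-. The signalling members come first. Irf7, the transcription factor that amplifies interferon gene induction, was at 19.9, 21.7 and 25.9 CPM in WT primary libraries and at 0.806, 2.67 and 20.8 CPM in the lines. For Prkd3-/-, Irf7 was at 4.38, 19.5 and 4.49 CPM in primary cells and 0.725, 10.8, 1.83 and 0.904 CPM in lines. Lines 5 and 13a were thus the only lines above 10 CPM. Irf9, the DNA-binding subunit of ISGF3, had a narrower range. It was at 52.5, 56.5 and 57.1 CPM in WT primary libraries and 9.15, 27.2 and 50.3 CPM in the lines, with no overlap between the 2 states. In the Prkd3-/- libraries Irf9 was at 27.1, 48.7 and 19.9 CPM, then 7.62, 37.7, 22.7 and 14.96 CPM. Stat2, the subunit that carries the activation domain of ISGF3, was at 79.1, 86.0 and 91.1 CPM in WT primary libraries and 20.2, 76.7 and 183 CPM in the lines. Line 4 nearly kept the Stat2 level of its primary library although its mean over the members was low. Prkd3-/- primary libraries had 34.4, 61.3 and 22.3 CPM of Stat2 and the lines 9.43, 41.0, 23.1 and 28.4 CPM. Usp18, which removes ISG15 from proteins and dampens receptor signalling, showed the wider swings of a target gene. It was at 19.8, 18.5 and 23.5 CPM in WT primary libraries and 0.274, 1.13 and 35.4 CPM in the lines. For Prkd3-/-, Usp18 was at 4.22, 23.2 and 3.28 CPM, then 0.210, 15.3, 1.03 and 0.229 CPM, so that line 13a was the only one above 2 CPM. Irf1, a transcription factor that also answers to gamma interferon, varied least among the lines of both genotypes, from 11.4 to 23.7 CPM over the 7 lines and from 12.7 to 19.1 CPM over the 6 primary libraries.

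The sensors spanned a high and a low end. Eif2ak2, which encodes the RNA-activated kinase PKR, was at 91.7 to 93.1 CPM in WT primary libraries, 49.6 to 69.7 CPM in Prkd3-/- primary libraries and 30.0 to 141 CPM in the lines. Ifih1, the sensor MDA5 of long double-stranded RNA, ranged from 26.1 to 31.2 CPM in WT primary libraries. It was at 2.96, 4.79 and 25.7 CPM in WT lines 3, 4 and 5 and at 2.75, 13.96, 8.83 and 6.54 CPM in the Prkd3-/- lines. Dhx58, the related helicase LGP2, was at 8.65 to 9.88 CPM in WT primary libraries, at 8.69 CPM in WT line 5 and at 0.290 and 1.185 CPM in lines 3 and 4. Zbp1, a sensor of Z-form nucleic acid, had no read pair in WT line 3, 2 in line 4 and 280 in line 5, which equalled 4.27 CPM.

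The OAS family makes or relates to the enzymes that produce 2',5'-oligoadenylate, the activator of the ribonuclease RNase L. Its members were among those nearest to 0. Oas2 was at 2.97, 2.79 and 3.77 CPM in WT primary libraries. In the WT lines Oas2 had 0 and 3 read pairs in lines 3 and 4 and 13.9 CPM in line 5. The Prkd3-/- primary libraries had 0.369, 3.90 and 0.814 CPM of Oas2, and the lines had 0 read pairs in lines 13 and 15, 3 in line 14 and 28 (0.384 CPM) in line 13a. At these depths a count of 0 allows up to the floor given above. Oasl2, an OAS-like protein with ubiquitin-like repeats, was at 30.7, 29.8 and 36.5 CPM in WT primary libraries. WT line 3 held 1 read pair of Oasl2, line 4 had 0.728 CPM and line 5 had 50.9 CPM. For Prkd3-/-, Oasl2 was at 5.30, 26.2 and 3.37 CPM in primary libraries and 0.153, 7.89, 1.63 and 0.189 CPM in the lines. This gene had the widest range of all members among the WT lines. Oas1a and Oas3 had 3 or fewer read pairs in WT lines 3 and 4 and in Prkd3-/- lines 13, 14 and 15. WT line 5 differed between them, with 12.7 CPM of Oas1a, above the 6.75 to 8.38 CPM of the primary libraries, and 1.95 CPM of Oas3, below their 5.95 to 8.22 CPM. Oasl1, which limits translation of Irf7, was low throughout, at 1.15 to 1.57 CPM in WT primary libraries and at 1.48 CPM in WT line 5.

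IFIT1, of the IFIT family, binds viral RNA that lacks the host cap methylation. Ifit1 was at 56.5, 60.9 and 69.1 CPM in WT primary libraries and at 0.403, 2.81 and 237 CPM in the lines. WT line 5 was thus above every primary library, and lines 3 and 4 were below all of them. The Prkd3-/- primary libraries had 9.38, 40.2 and 5.86 CPM of Ifit1 and the lines 0.802, 27.9, 3.14 and 3.43 CPM. Ifit3 was at 41.8, 44.1 and 48.0 CPM in WT primary libraries and 10.4, 4.65 and 121 CPM in the lines. For Prkd3-/-, Ifit3 was at 9.24, 39.4 and 5.30 CPM, then 0.935, 45.5, 6.71 and 9.46 CPM. Line 13a lay above all 3 primary libraries of its genotype for Ifit3. Ifit3b, its near copy, was at 15.4 to 19.7 CPM in WT primary libraries, 2.75, 1.81 and 32.9 CPM in WT lines and 0.172, 14.97, 3.52 and 1.58 CPM in Prkd3-/- lines. Ifit2 was unlike its neighbours. It was at 33.99, 34.7 and 37.6 CPM in WT primary libraries and 29.2, 20.3 and 50.5 CPM in the lines. In the Prkd3-/- libraries Ifit2 was at 16.3, 26.3 and 15.6 CPM, then 33.5, 34.1, 8.24 and 29.9 CPM, so that line 13 kept Ifit2 where Ifit1 and Ifit3 were under 1 CPM.

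**Figure D3:**
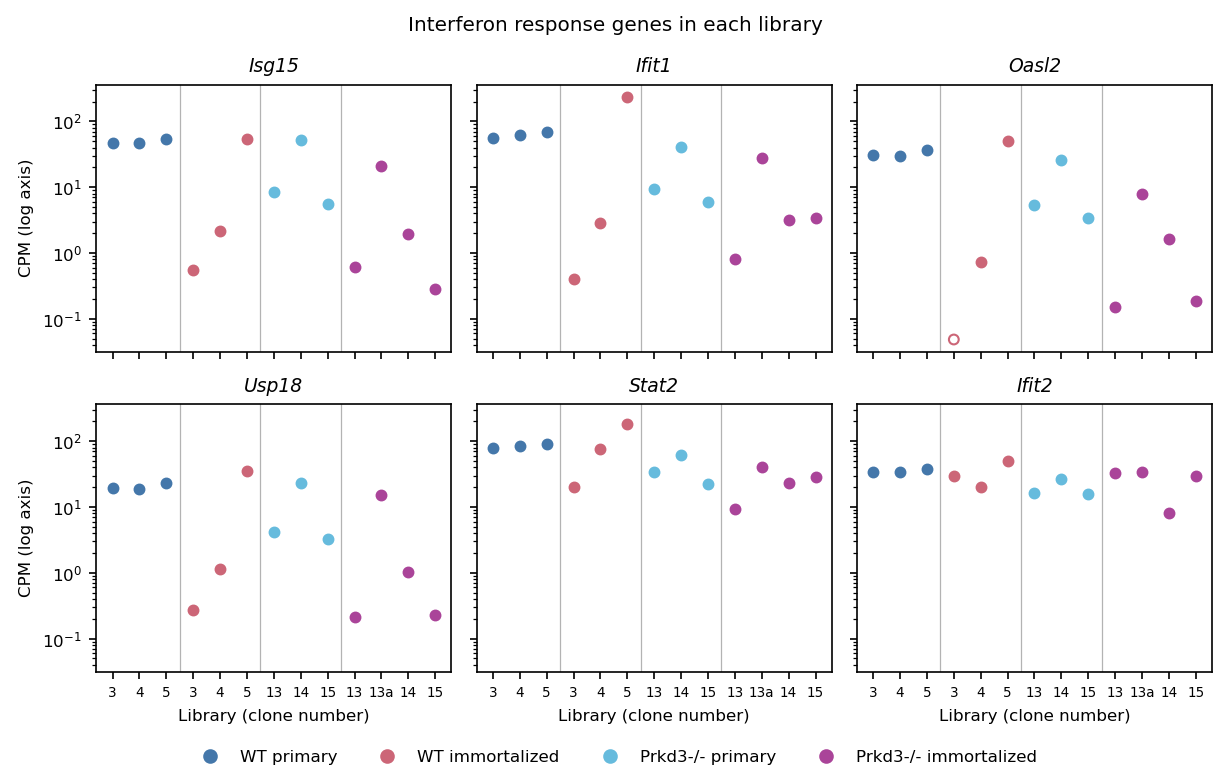
CPM on a shared log axis of 6 members in each library, labelled by clone number and coloured by genotype and state. Open circles are at the floor of 3 counts. Isg15, Ifit1, Oasl2 and Usp18 are high in WT line 5 and in Prkd3-/- line 13a and low in the other lines, whereas Ifit2 stays between 8.24 and 50.5 CPM in all 13 libraries.

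The antiviral GTPases and effectors come next. Mx1, a dynamin-like GTPase that blocks influenza viruses, was low even in WT primary libraries, at 1.196, 1.43 and 1.56 CPM. Mx1 had 0 and 2 read pairs in WT lines 3 and 4 and 1.42 CPM in line 5, and it was at 0.277, 0.971 and 0.196 CPM in Prkd3-/- primary libraries. Of the Prkd3-/- lines, 13 had 0 read pairs of Mx1, 14 and 15 had 5 and 3, and 13a had 0.534 CPM. Mx2, its paralog, was at 5.87, 6.05 and 6.36 CPM in WT primary libraries, and its WT lines had 0 read pairs in line 3, 0.677 CPM in line 4 and 17.0 CPM in line 5. For Prkd3-/-, Mx2 was at 0.553, 2.51 and 0.281 CPM, then 0.0382, 1.15, 0.344 and 0.0270 CPM, where lines 13 and 15 were under the floor. Here every Prkd3-/- library was below every WT primary library. Gbp2, a guanylate-binding GTPase that also answers to gamma interferon, was at 16.3, 15.5 and 15.2 CPM in WT primary libraries and 7.89, 0.897 and 35.03 CPM in the lines. Prkd3-/- libraries had Gbp2 at 12.99, 26.5 and 8.98 CPM, then 2.27, 18.4, 14.99 and 3.25 CPM. Line 14 thus held Gbp2 near the WT primary level, unlike most of the members. Bst2, the tetherin that holds budding virus at the cell surface, was at 63.5, 66.8 and 71.2 CPM in WT primary libraries and 3.79, 9.63 and 130 CPM in the lines. The Prkd3-/- libraries had 13.9, 61.2 and 9.87 CPM of Bst2, then 22.04, 32.4, 10.2 and 4.36 CPM, and here line 13 was above its primary library. Rsad2, the antiviral enzyme viperin, was at 3.86, 4.29 and 4.54 CPM in WT primary libraries, and the WT lines had 3 and 0 read pairs in lines 3 and 4 and 1.91 CPM in line 5. For Prkd3-/-, Rsad2 was at 0.611, 6.64 and 0.926 CPM, then 0.0191 (1 read pair), 1.11, 0.0782 and 0.148 CPM. Its neighbour Cmpk2, a nucleotide kinase, was at 6.15 to 7.90 CPM in WT primary libraries, at 4.74 CPM in WT line 5 and at 0.129 and 0.389 CPM in lines 3 and 4. WT line 5 held Mx1, Rsad2 and Cmpk2, alone in this group, below the level of its primary library.

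Among the members that modify proteins, Isg15, the ubiquitin-like protein joined to many cellular proteins, was at 46.6, 46.7 and 53.6 CPM in WT primary libraries and 0.548, 2.18 and 54.5 CPM in the lines. Prkd3-/- libraries had Isg15 at 8.38, 52.2 and 5.47 CPM, then 0.611, 21.0, 1.92 and 0.283 CPM. Clone 14 had the Isg15 level of the WT primary libraries, and the other Prkd3-/- primary libraries were below 10 CPM. Trim25, the ubiquitin ligase that activates RIG-I, was at 91.7 to 98.2 CPM in WT primary libraries, 26.4, 36.0 and 69.4 CPM in WT lines, 35.9 to 69.1 CPM in Prkd3-/- primary libraries and 4.94, 48.5, 9.57 and 1.17 CPM in Prkd3-/- lines. Over the WT lines, the ubiquitin ligase Dtx3l lay between 8.15 and 57.6 CPM and its partner Parp9 between 9.22 and 59.99 CPM. Parp14, a larger ADP-ribosyltransferase, was at 1.68, 1.49 and 31.5 CPM in WT lines 3, 4 and 5 against 22.1 to 26.5 CPM in their primary libraries. Trim30a, a TRIM-family member, had no read pair in Prkd3-/- line 13 and 36.0 CPM in WT line 5.

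Of the remaining members, Xaf1, a proapoptotic target of interferon, was the member with the narrowest range among the Prkd3-/- primary libraries, 0.18 log2 units. It was at 41.3, 41.4 and 43.6 CPM in WT primary libraries and at 11.2, 12.5 and 12.7 CPM in Prkd3-/- primary libraries. Xaf1 was the only member that was no higher in clone 14 than in clone 15. In the lines Xaf1 was at 0.274, 2.03 and 52.1 CPM for WT and 1.24, 21.6, 5.27 and 2.55 CPM for Prkd3-/-. Ifi44, a cytoplasmic antiviral protein, was at 62.5 to 64.8 CPM in WT primary libraries, 2.60, 13.01 and 1.63 CPM in Prkd3-/- primary libraries and 0.854, 9.28 and 72.3 CPM in WT lines. It was at 0.134, 5.44, 0.344 and 0.0540 CPM in Prkd3-/- lines. Ifi35, a leucine zipper protein, varied little, from 6.62 to 28.5 CPM over the 13 libraries, and Rtp4, a receptor transporter that inhibits viral RNA synthesis, ranged from 1.93 to 29.2 CPM.

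Per length, the 2 shortest members had the highest levels. In CPM per kilobase of exon, the mean over WT primary libraries was 74.3 for Bst2 and 69.6 for Isg15, followed by 25.6 for Ifit3 and 23.4 for Ifit1, and 0.368 for Mx1, the lowest. Some counts are shared between genes, because the authors counted a read pair of the WT libraries for every gene it overlapped, without strand. Irf1 shared 20.0% of its exon bases with a predicted gene on the opposite strand, Ifi35 16.8% and Rtp4 13.9% with other predicted genes, and Dtx3l and Parp9 shared 8.0% and 9.40% with each other. The rest shared under 5%. Of the 100-base words in its transcripts, Oas1a shared 40.9% with Oas1g, Ifit3 shared 31.7% with Ifit3b and Ifit3b 27.4% with Ifit3. Read pairs that fit several places were left out of the WT counts, so those levels are uncertain, and the word share of every other member was under 10%.

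Each line was also set against the primary library of its number, as a single pair without replicates. Genes with 3 or fewer read pairs in the line were set at 3. In WT line 3, 32 of 34 members were at least 2-fold lower than in its primary library and none was higher, where 17.9% of all genes were that much lower and 5.19% that much higher. The median of the members' log2 ratios was -4.60, which is 24.3-fold lower, and 20 members were over 10-fold lower. WT line 4 was similar, with 29 members at least 2-fold lower (15.7% of all genes), none higher (5.04%) and a median of -3.25. WT line 5 was the reverse in most members. In it 7 members were at least 2-fold higher (8.13% of all genes) and 2, Oas3 and Rsad2, at least 2-fold lower (13.4%), and 24 of 34 lay above the primary library, with a median of 0.45. Prkd3-/- line 13 had 29 members at least 2-fold lower (22.7% of all genes), 1, Ifit2, at least 2-fold higher (10.4%) and a median of -2.64. Line 13a had none at least 2-fold lower (9.11% of all genes), 13 at least 2-fold higher (8.8%) and a median of 0.73 against the same primary library, and 32 of 34 members lay above it. Line 14 had 29 lower (16.4%), none higher (13.1%) and a median of -2.71, and line 15 had 21 lower (14.8%), none higher (8.71%) and a median of -1.50. The median over all genes was within 0.03 log2 units of 0 in every pair. The WT primary libraries differed little from each other, so the WT ratios hardly depend on which of them is the reference.

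**Figure D4:**
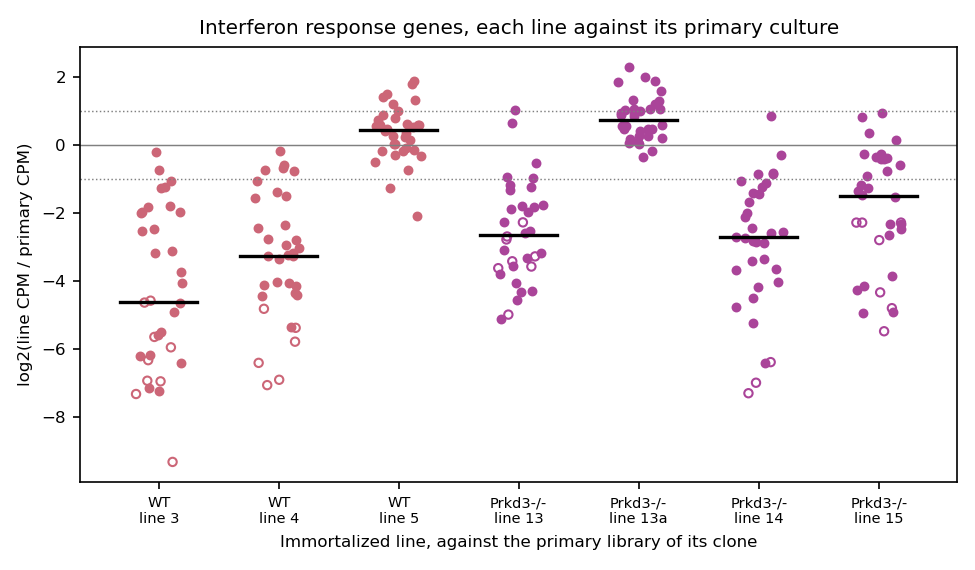
Log2 ratio of the CPM in each line to the CPM in the primary library of the same clone number, with 1 point per member, black bars for the median and dotted lines at 2-fold. Open circles are members with 3 or fewer read pairs in the line, set at 3. Medians are below -1 in WT lines 3 and 4 and Prkd3-/- lines 13, 14 and 15 and above 0 in WT line 5 and Prkd3-/- line 13a.

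Lines 13 and 13a carry the same clone number and differed from each other in most members. In line 13a 30 of 34 members were at least 2-fold higher than in line 13, 16 of them at least 10-fold, none was lower, and the median ratio was 9.58. Over all genes, 22.4% were at least 2-fold higher in line 13a and the median ratio was 0.993. The direction was thus uniform over the members, and Irf1 and Ifit2 were among the few that lay within 2-fold.

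Whether the members differed between immortalized and primary WT MEFs was tested with edgeR's quasi-likelihood test over 3 libraries per state, where a gene was called if its adjusted p was under 0.01 and its |Log2FC| was 1 or more. None of the 34 members was called, against 361 of 19836 genes tested (1.82%). At an unadjusted p under 0.05 there was 1 member, Trim25, which was lower (19.7% of all genes). DESeq2 called none of the members (5.67% of all genes) and limma none (0.998%). For Trim25 the Log2FC was -1.11 with a standard error of 0.36 and an adjusted p of 0.171. The Log2FC was negative for 29 of the 34 members, with a median of -0.80 against 0.04 for all genes. Irf9, Ifih1, Oas3, Rsad2, Cmpk2 and Trim25, 6 of the 34, were lower in every line than in every primary library, as were 17.4% of all genes. The median Log2FC of the role groups ran from -1.13 for Xaf1, Ifi44, Ifi35 and Rtp4 to -0.03 for the IFIT family. The mean log2 CPM of the members was 1.76 ± 2.61 (SD, n = 3) in the lines and 4.22 ± 0.11 (SD, n = 3) in the primary libraries, a difference of -2.46 with a pooled SD of 1.85, where all genes differed by -0.32. WT line 5 decides the count. Without it, edgeR called 15 of the 34 members, all lower (3.66% of all genes), with Log2FC from -7.32 to -1.60. They were Ifih1, Zbp1, Oas1a, Oas2, Oas3, Oasl1, Ifit3b, Mx1, Rsad2, Cmpk2, Trim25, Dtx3l, Parp9, Parp14 and Rtp4. Line 5 was the highest of its group for 34 of 34 members, so leaving it out favours such calls and is not a separate test. Each other library left out gave 0 called members. A fitted mean over 3 lines of unequal level also hides the direction of single lines. For Ifit1 the Log2FC was 0.37 with a standard error of 1.87, although 2 of 3 lines were far below the primary libraries, and a fit with the clone number as a block turned it to -3.80.

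In the Prkd3-/- libraries, 4 lines were tested against 3 primary libraries in the same way. None of the 34 members was called, and edgeR and limma called none of the 20298 genes tested (0% by each). At an unadjusted p under 0.05, Oas2 and Oas3 were lower (6.56% of all genes), and DESeq2 called no member (0.8%). For Oas3 the Log2FC was -4.08 with a standard error of 1.54 and an adjusted p of 0.711 in edgeR's test. The Log2FC was negative for 32 of 34 members, all but Irf1 and Ifit2, with a median of -1.31, and 1 member, Oas3, was lower in every line than in every primary library (5.26% of all genes). The OAS family had the lowest median of the role groups, at -3.61, and the IFIT family the highest, at -0.32. The mean log2 CPM was 0.88 ± 1.61 (SD, n = 4) in lines and 2.75 ± 1.10 (SD, n = 3) in primary libraries, a difference of -1.87 with a pooled SD of 1.43 and of -0.22 for all genes.

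Before immortalization, the members were compared between the genotypes over 3 primary libraries each. Of the 34 members, 1 was called, against 156 of 20403 genes (0.765%). This was Xaf1, which was lower in the Prkd3-/- libraries, with a Log2FC of -1.77, a standard error of 0.09 and an adjusted p of 0.000709. The call was lost without WT primary library 3 or 4, where 2 genes in all were called each time and the Log2FC of Xaf1 stayed at -1.80. At an unadjusted p under 0.05 there were 12 members, all lower (24.1% of all genes). DESeq2 called Xaf1, Mx2 and Ifi44 lower (3.63% of all genes), and limma called 1 member (0.99%). For Mx2 the Log2FC was -2.37 with a standard error of 0.74 and an adjusted p of 0.12 in edgeR's test, and for Ifi44 it was -3.41 with a standard error of 0.79 and an adjusted p of 0.0603. The Log2FC was negative for 33 members, all but Gbp2, with a median of -1.01, and 22 of 34 were lower in every Prkd3-/- than in every WT primary library (18.8% of all genes). The mean log2 CPM was 2.75 ± 1.10 (SD, n = 3) against 4.22 ± 0.11 (SD, n = 3). Here Prkd3-/- library 14 decides the count, and it was also the primary library with the most macrophage markers, whose sum was 2438 CPM there, 200 and 480 CPM in clones 13 and 15 and 1783 to 1836 CPM in the WT primary libraries. The part of these markers in the comparison was not tested. Without library 14, 30 of 34 members were called lower (7.13% of all genes), with Log2FC from -4.82 to -1.13. The exceptions were Irf1, Eif2ak2, Gbp2 and Ifi35. Library 14 was the highest of its group for 32 of 34 members, so leaving it out favours such calls and is not a separate test. Each other library left out gave 0 or 1 called member. Genotype, deposited table and sex makeup cannot be told apart in this comparison, and the small spread of the WT primary libraries may understate that between embryos.

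After immortalization, the 4 Prkd3-/- lines, with 13 and 13a again counted separately, were tested against the 3 WT lines. Of the 34 members 30 passed the filter, and Oas1a, Oas2, Oas3 and Mx1 did not, since they were near 0 in most lines. None was called, against 8 of 19683 genes (0.0406%), and DESeq2 (0.766% of all genes) and limma (0.0254%) called none. At an unadjusted p under 0.05, Stat2 was lower in the Prkd3-/- lines (6.88% of all genes), with a Log2FC of -1.87, a standard error of 0.74 and an adjusted p of 0.714 in edgeR's test. No member was lower in every Prkd3-/- line than in every WT line (4.19% of all genes). The mean log2 CPM of the members differed by -0.88 in the Prkd3-/- lines from the WT lines, which is smaller than the pooled SD of 2.07, and without WT line 5 the difference was 0.59 in the other direction. Whether the change with immortalization differed between the genotypes was tested as an interaction over 13 libraries, and no member was called at an adjusted p under 0.05 (0% of all genes in edgeR and in limma, 0.125% in DESeq2). No member had an unadjusted p under 0.05 (3.97% of all genes). The standard errors of the interaction ran up to 2.68 log2 units, for Oas2 and Oas1a, so a difference of that size could be missed.

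Of the genes upstream of the members, Ifnar1, Ifnar2, Jak1, Tyk2 and Irf3 varied less among the libraries than most members did. Others on the pathway lists varied widely, as Tlr7 had 7 to 2710 read pairs and Irf8 had 0 to 1687. The interferons themselves were at or near 0. Of 21 interferon genes, between 17 and 20 had no read pair in a given library, and their sum did not exceed 0.157 CPM. Ifnb1, the interferon that fibroblasts make first, had 4 read pairs in WT line 5, 2 in Prkd3-/- line 13, 1 in Prkd3-/- primary library 14 and 0 in the other 10 libraries. The most counted was Ifnz, with 0 to 16 read pairs. Ifnar1, a receptor chain, was at 114, 117 and 117 CPM in WT primary libraries and 120, 96.9 and 136 CPM in the lines, and at 84.0, 81.9 and 75.7 CPM, then 60.4, 78.4, 115 and 44.1 CPM for Prkd3-/-. WT lines 3 and 4, which were low in the members, were near the primary level of Ifnar1. Prkd3-/- lines 13 and 15, also low in the members, had the lowest Ifnar1 of all libraries, at 60.4 and 44.1 CPM. Prkd3-/- line 14, low in the members too, had 115 CPM of Ifnar1 against 81.9 CPM in its primary library. The part of Ifnar1 in the members' levels was not tested. Ifnar2, the other chain, lay between 20.9 and 64.6 CPM over the 13 libraries. The kinase Jak1 lay between 126 and 421 CPM, its partner Tyk2 between 18.5 and 28.5 CPM and Irf3, which switches on Ifnb1, between 18.4 and 31.5 CPM. Ddx58, which encodes the RNA sensor RIG-I, was highest in WT line 5, at 92.3 to 94.9 CPM in WT primary libraries, 48.0, 42.3 and 106 CPM in WT lines and 10.1, 56.0, 60.9 and 17.98 CPM in Prkd3-/- lines.

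**Figure D5:**
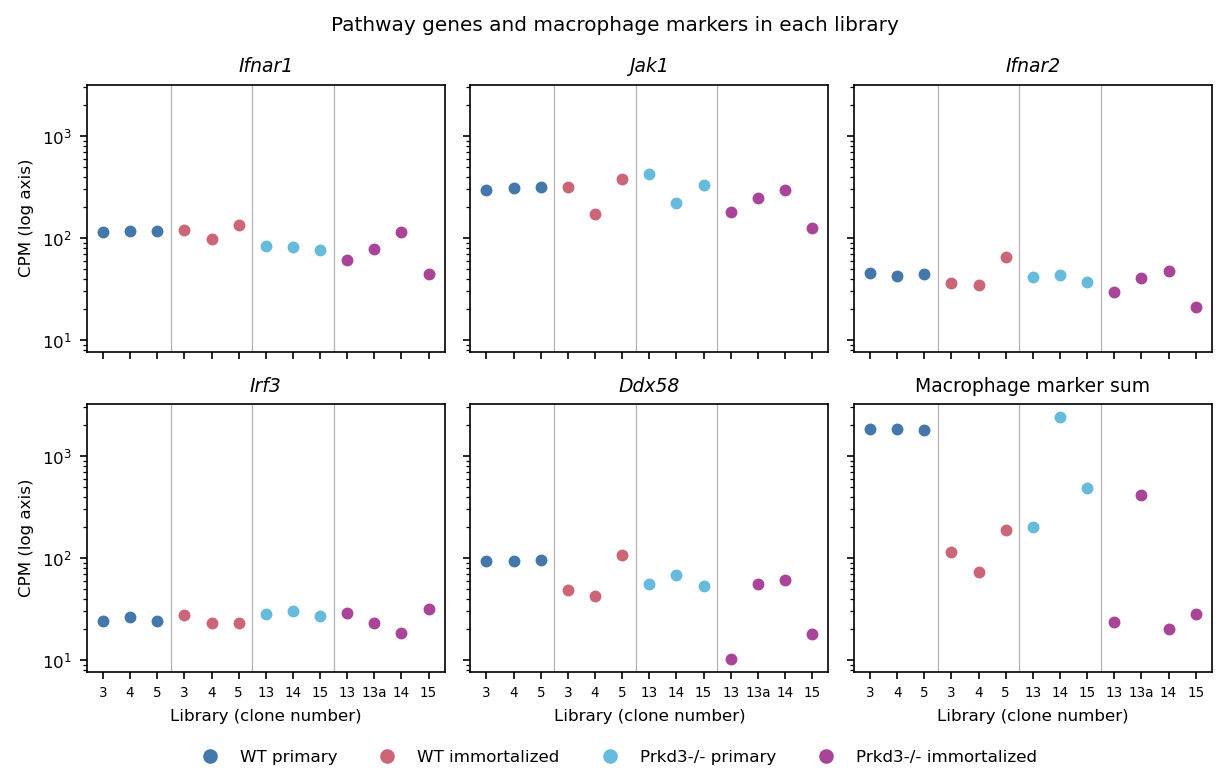
CPM on a shared log axis of 5 pathway genes and of the sum of 18 macrophage markers in each library, labelled by clone number and coloured by genotype and state. Irf3 stays between 18.4 and 31.5 CPM and Ifnar1 between 44.1 and 136 CPM, Ddx58 is highest in WT line 5, and the macrophage sum is at 187.6 CPM in that line against 1783 CPM or more in the WT primary libraries.

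Of 140 other genes of the pathway (21 ligands, 6 receptor chains, 18 kinases, STATs, IRFs and inhibitors, 21 sensors, adaptors and nucleases, and 74 further interferon-stimulated genes), few were called by edgeR. In immortalized against primary WT MEFs 3 of 116 tested were lower and none higher, a share near the 1.82% of all genes called, and these were Irf8 (Log2FC -5.25), Tlr7 (-4.59) and Aim2 (-4.18). Irf8 is a transcription factor of the myeloid lineage, Tlr7 a receptor for single-stranded RNA and Aim2 a sensor of cytosolic DNA. Between the primary libraries 1 of 117 was called, near the 0.765% of all genes. This was Apol9a, an apolipoprotein L family member, lower in Prkd3-/- with a Log2FC of -1.80 and an adjusted p of 0.00999 in edgeR's test. In edgeR's test no pathway gene was called in the other 3 comparisons. DESeq2 called 9 lower in WT (5.67% of all genes), 8 lower between primary libraries (3.63%) and 1 higher between the lines (0.766%). By limma 2 were called lower in WT (0.998% of all genes) and 0 between primary libraries (0.99%). Of the 74 further interferon-stimulated genes, 72 were tested in WT, 70 in Prkd3-/- and 73 between primary libraries. Their median Log2FC was -0.51, -0.56 and -0.70 in that order, in the direction of the members, against 0.04, 0.07 and 0.01 for all genes.

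Macrophage markers moved with the members in some libraries and not in others. Of 18 macrophage markers, edgeR called 10 lower and none higher in immortalized WT MEFs (1.82% of all genes). DESeq2 called 16 lower (5.67% of all genes) and limma 13 (0.998%). The sum of the 18 was 1836, 1821 and 1783 CPM in WT primary libraries and 113, 72.3 and 188 CPM in WT lines 3, 4 and 5. In WT line 5, 24 of the 34 members lay above and 10 below the level of the primary library, while this sum was 188 CPM against 1783 CPM. Not every marker fell with the sum. Adgre1 had 3608 read pairs in WT line 5 and 4135 in its primary library, against 134 and 127 in lines 3 and 4. Aif1 had 73 in WT line 5 and 38 in its primary library. Over the 3 WT lines the Log2FC was negative for all 18 markers. Among the Prkd3-/- libraries the sum was 200, 2438 and 480 CPM in primary clones 13, 14 and 15 and 23.3, 419, 20.3 and 28.1 CPM in lines 13, 13a, 14 and 15. Clone 14 and line 13a, which were highest in the members, were also highest in macrophage markers. Of the 18 markers 9 had no read pair in Prkd3-/- line 13 and 1 had none in line 15, while all 18 were counted in the other libraries. The part of macrophages in the members' levels was not tested. Markers of endothelial cells (0.371 to 29.0 CPM), epithelial cells (0.209 to 4.30 CPM) and lymphocytes (0.0573 to 3.69 CPM) were low in sum in all libraries.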

How the data were processed

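Poly-A RNA of 13 mouse embryonic fibroblast cultures was sequenced in read pairs of 100 bases. Per the submitters' processing notes and the paper's methods, the authors checked reads with FastQC 0.12.0, mapped them to mm10 with STAR 2.7.10a, converted files with SAMtools 1.18 and counted uniquely mapped pairs on Ensembl genes (GRCm38) with featureCounts of Subread 2.0.6. The authors deposited raw counts per gene in 2 tables, 1 per genotype. The counting options are in the header of the WT table only. No column was left unmapped.

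Gene symbols came from a GENCODE table, which matched 55141 of 55487 genes. The members and lists were chosen with earlier results of these data known. Counts were fitted with edgeR 4.0.16 in R 4.3.3 (TMM, filterByExpr, robust quasi-likelihood test, Benjamini-Hochberg adjustment over all genes tested), each comparison on its own libraries and the interaction on all 13. The standard error is the size of the Log2FC divided by the square root of F. The fits were tested on simulated counts. CPM used TMM factors over 13 libraries, and mean log2 CPM used a prior count of 1. Alternatives were DESeq2 1.42.0, limma 3.58.1, edgeR with DESeq2's size factors or unscaled library sizes, without the filter, with a minimum of 10 counts in each library and without the robust option, a joint fit, the clone number as a block, lines 13 and 13a summed, each library left out, an adjusted p under 0.05, a prior count of 0.1, the members' median and members with a mean of at least 1 CPM. By rule, 14 members and each member called were given in every library, and other members given so were chosen after their values were seen.

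The clone numbers in the labels pair lines with primary libraries. The deviations of paired libraries from their group means had correlations of -0.04 to 0.02 in WT and -0.28 to 0.14 in Prkd3-/-, so the pairing is not seen in the counts. Separate cultures are given by the labels, and p-values measure the spread between these. The paper describes 3 embryos for WT. The WT primary libraries each held both Xist and Y-linked transcripts and differed per gene by only 2.08% to 3.15% beyond sampling noise. Whether they are independent embryos cannot be told from the counts, and their spread may understate that between embryos. Promoters are RefSeq windows on GRCm38.p6, searched on both strands, and exon overlaps were taken from the WT table. A further gene of the pathway lists, kept in their counts, is not reported by name here.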

Additional observations from a re-analysis of the deposited data

Results flagged for a closer look

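Each of the 34 members and the mean over them was checked for a library set apart among the 4 Prkd3-/- lines, the only group of 4. A library was set apart if the share of the group's range taken by its gap to the nearest other exceeded Dixon's 95% critical value. Chance exceeds that value in about 1 of 20 groups only where values are normally distributed. The members were checked in CPM, not on a log scale, where a wide range favours a flag for the high library, so that rate does not hold here. Of 35 values 13 were flagged, all of them single members, and since the members move together these are not 13 separate events. The mean over the members was not flagged.

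In 12 of the 13, line 13a was the high library. Its levels were 10.8 CPM for Irf7 (next 1.83), 15.3 for Usp18 (next 1.03), 27.9 for Ifit1 (next 3.43), 21.0 for Isg15 (next 1.92), 5.44 for Ifi44 (next 0.344) and 10.6 for Rtp4 (next 3.00). The low members flagged were Oas1a at 0.973, Oas2 at 0.384, Oas3 at 0.603, Oasl1 at 0.904, Mx1 at 0.534 and Rsad2 at 1.11 CPM. The remaining flag was Ifit2, where line 14 was low, at 8.24 CPM, with the next line at 29.9 CPM. No member moved in opposite directions in every line of the 2 genotypes, and none passed the interaction test.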

How the results depend on the processing

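The number of members called was 0 under every setting run for Prkd3-/- immortalized against primary, for Prkd3-/- against WT lines and for the interaction. For WT immortalized against primary it was 0 under every setting except those that leave out a library, which gave 0 to 15. The 15 came without WT line 5 and the other libraries gave 0. For the primary libraries it was 3 with DESeq2 and 0 with all 13 libraries fitted together. With a library left out it was 0 to 30, with 30 without Prkd3-/- library 14 and 0 without WT library 3 or 4. WT line 5 and Prkd3-/- library 14 were the highest of their groups for most members, so neither the 15 nor the 30 is a separate test. Xaf1 lost its call in the joint fit (Log2FC -1.79) and without WT primary library 3 or 4 (-1.80). The clone number as a replicate block gave 0 called members and changed no call of a member. It lowered the count over all WT genes from 361 to 0.

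The difference in mean log2 CPM kept its sign in 3 of 4 comparisons, with a library left out, at -3.93 to -1.44 (WT), -2.60 to -1.24 (Prkd3-/-) and -2.10 to -1.09 (primary libraries). Between the lines it was -1.90 to 0.59, so its direction depends on WT line 5.

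Among fitted genes, WT Log2FC turned negative for Stat2 (limma -0.37, replicate block -0.35), Ifit1 (-3.17 and -3.80), Ifit3 (-1.26 and -1.43, and -0.047 with library size alone) and Oas2 (-3.97 and -3.88). Under the replicate block, Ifit3 in Prkd3-/- turned to 0.087. Library size alone moved the WT median of all genes from 0.04 to -0.10. With a library left out, the sign of the WT Log2FC changed for Stat2 (-0.81 to 0.61), Ifit1 (-5.27 to 0.96), Ifit3 (-2.56 to 0.56), Oas2 (-6.89 to 1.14), Mx2 (-4.17 to 0.55), Bst2 (-3.32 to 0.066) and Gbp2 (-1.84 to 0.46). In Prkd3-/- it changed for Ifit1 (-2.93 to 0.21), Ifit3 (-1.67 to 1.11), Bst2 (-1.26 to 0.53) and Usp18 (-4.39 to 0.16), and between primary libraries for Gbp2 (-0.49 to 0.34). None of these was called in any fit of all its libraries, and the cause was not tested. Members with 3 or fewer read pairs in a line, up to 9 of 34 in WT line 3, are at the limit of the depth.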
